A study of Homo sapiens with 6 samples.

Results

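DLEU1 is a long noncoding RNA gene at 13q14, a stretch of chromosome 13 that is often deleted in chronic lymphocytic leukemia. Around it lie DLEU2, whose introns hold the miR-15a and miR-16-1 hairpins, the E3 ligase gene TRIM13, and, farther along the chromosome, the tumor suppressor gene RB1. Long noncoding RNAs can act on genes beside them or on genes elsewhere, so the neighborhood of a silenced noncoding RNA is of interest in its own right. The genes described here are those whose array probes lie at 45000000 to 56000000 of chromosome 13 on hg19, by the coordinates in the scanner files. The probe named DLEU1 (A_23_P151337, NR_002605) lies at 50679272 to 50679331 on the + strand, and distances are counted from its first base. The window holds 139 gene names out of 36337 on the array, measured by 186 of 50599 probes, of which 85 lie on the + strand, as DLEU1 does, and 101 on the opposite strand.

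HSC-3, KON, and Ca9-22, established lines of oral squamous cell carcinoma, each received siDLEU1-2, an siRNA that targets DLEU1, or siCtrl, a universal negative control siRNA. Total RNA (100 ng) taken 72 h later was labeled with Cy3, and each line gave 1 array per siRNA, 6 one-color arrays on 1 slide. The lines therefore serve as the 3 replicates, the change seen in a single line carries no error estimate, and 1 siRNA stands for the knockdown. RNA was taken from whole cultures, so fewer cells with a transcript and less transcript per cell cannot be told apart. The number of arrays limits the precision. Of 8 squamous markers, KRT5, KRT14, KRT17, KRT6A, SFN, DSG3, and EPCAM exceeded background clearly on all 6 arrays and TP63 on 5. The leukocyte markers PTPRC and CD3E were so on at most 2 arrays. Among endothelial and fibroblast markers, PECAM1 was above background on 1 array, CDH5 on 5, COL1A1 on 6, and COL3A1 and PDGFRB on none.

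The sequences that identify the DLEU1 transcripts on these arrays are given first, because different probes gave different answers after the knockdown. XLOC_010390 is the name in the files for a set of 5 probes on the same strand as DLEU1, 303 to 423 kb downstream of the DLEU1 probe. Both primers of the pair called DLEU1 #1 in the study's quantitative PCR were found letter for letter in probes of this set. The forward primer occupied bases 34 to 54 of probe A_21_P0007910, and the reverse complement of the reverse primer occupied bases 15 to 35 of probe A_19_P00321577, which lies 35.2 kb farther along. Neither primer of the pair DLEU1 #2 was found in any of the 186 probes. Capitals mark the 21 bases of a primer in the probes, and bases 2 to 8 (the seed) in the antisense strand of the siRNA.
DLEU1 probe A_23_P151337, chr13:50679272-50679331: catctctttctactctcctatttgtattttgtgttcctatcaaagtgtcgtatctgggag
XLOC_010390 probe A_21_P0007910, chr13:51066840-51066897: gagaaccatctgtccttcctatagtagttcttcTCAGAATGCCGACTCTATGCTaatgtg
XLOC_010390 probe A_19_P00321577, chr13:51102045-51102104: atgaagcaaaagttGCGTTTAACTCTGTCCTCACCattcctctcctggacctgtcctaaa
siDLEU1-2 antisense strand: uUAAGUGCgauaaccccugua
siDLEU1-2 sense strand: cagggguuaucgcacuuaagc
No stretch of 15 bases complementary to the antisense strand, and no complement of its seed (GCACTTA, searched on the listed strand), was found in the 186 probes. This says only that these letters are not in the 60 bases of those probes.

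The DLEU1 probe checks the knockdown. Levels below are log2 processed signals relative to the 75th percentile of their array, and changes are log2 fold changes of siDLEU1-2 over siCtrl within a line. The siCtrl arrays gave DLEU1 levels of 1.39 (HSC-3), 2.16 (KON), and 1.56 (Ca9-22). The siDLEU1-2 arrays gave -2.71, -1.48, and -1.88, with all 6 arrays well above background. All 3 siCtrl arrays were higher than all 3 siDLEU1-2 arrays, by 17.1-fold within HSC-3, 12.4-fold within KON, and 10.8-fold within Ca9-22. DLEU1 thus fell by a mean log2 change of -3.72 ± 0.34 (SD, n = 3), with an adjusted p of 0.0227 in limma with the line as a block.

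Of the 5 XLOC_010390 probes, 2 hold a primer sequence and 1 of those was measured in all 3 lines. For that probe, A_19_P00321577, with the reverse primer, the siCtrl levels were -1.60 (HSC-3), -3.08 (KON), and -2.94 (Ca9-22). The siDLEU1-2 levels were -2.33, -3.09, and -2.81, lower in HSC-3 and nearly level in the other lines. All 6 arrays detected this probe well above background, and its log2 fold changes were -0.72, -0.01, and 0.13 (limma adjusted p = 0.585). In KON and Ca9-22 it lay near the detection floor, the lowest level called well above background on an array. That floor was -3.84 and -3.52 in KON and -3.44 and -3.29 in Ca9-22, after siCtrl and siDLEU1-2. A fall there had little room to show. A_21_P0007910, with the forward primer, was well above background only on the HSC-3 arrays, at -1.78 after siCtrl and -3.10 after siDLEU1-2, a log2 change of -1.31. Its values in KON (-0.63) and Ca9-22 (-1.49) come from arrays on which it was not well above background, and it was not tested. Another probe of the set, A_21_P0008064, whose listed coordinates span 50989288 to 51007557 and so include a splice, had log2 changes of -0.75 in HSC-3 and 0.12 in KON. In Ca9-22 its siCtrl spot was marked as an outlier, so it has no change there. The other two probes of the set were not well above background on any array. In HSC-3, where 3 of these probes were above background on both arrays, their changes of -1.31 to -0.72 compare with -4.10 for the DLEU1 probe. How the DLEU1 probe and these probes divide among DLEU1 isoforms is not stated in the files, and the difference between them was not tested. The study states that its siRNAs target the 3 RefSeq variants of DLEU1. By quantitative PCR it reports a marked decrease of DLEU1 after siDLEU1-2 in oral cancer lines. Its text does not say which primer pair was used. ENST00000428276, a transcript on the opposite strand whose probe lies 416 kb from the DLEU1 probe, between the last pair of XLOC_010390 probes, had log2 changes of 0.23, -0.40, and -0.05 (limma adjusted p = 0.814).

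**Figure D1:**
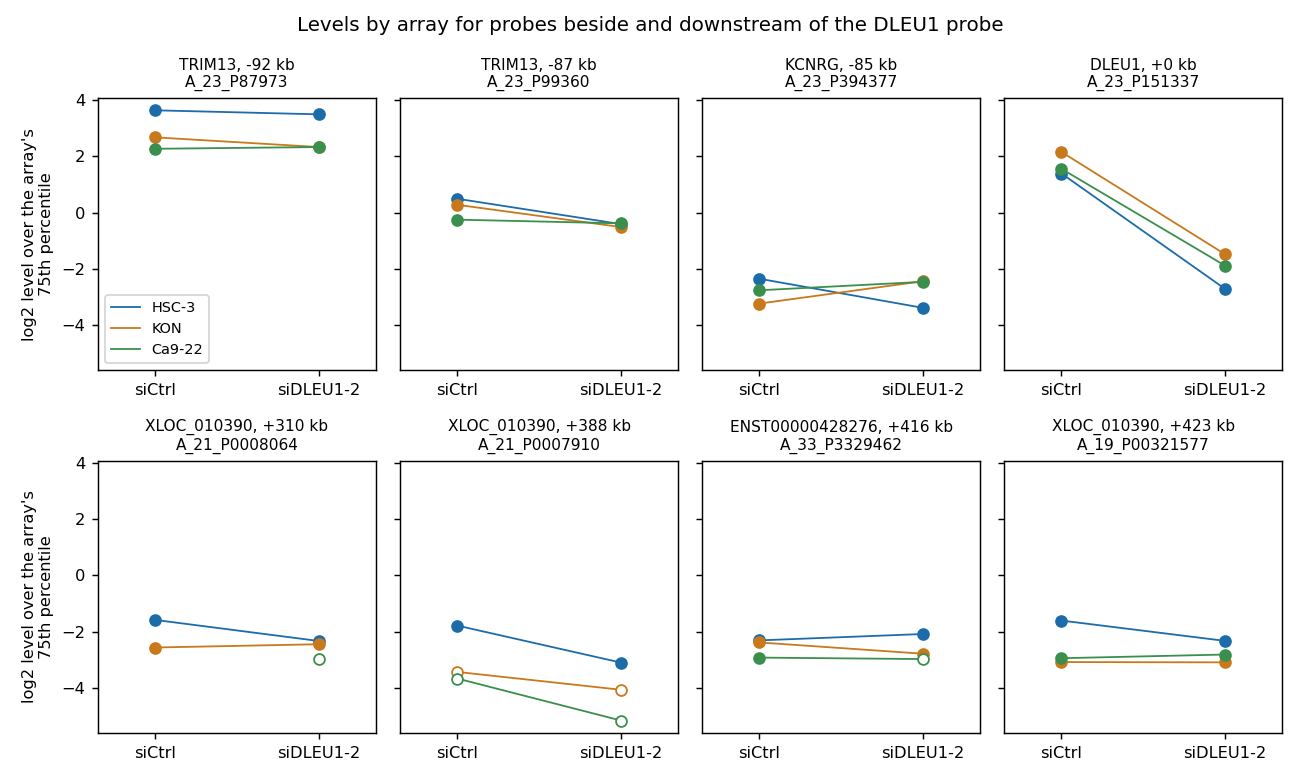
Levels on the 6 arrays for 8 probes, with the siRNA on the x axis and the log2 level over the array's 75th percentile on the y axis, a line for each cell line, and open circles where the probe was not well above background. The DLEU1 probe falls steeply in all 3 lines, whereas XLOC_010390 probe A_19_P00321577 changes by -0.72 in HSC-3 and by -0.01 and 0.13 in KON and Ca9-22. In KON and Ca9-22 the latter probe lies near the detection floor.

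Of the 186 probes, 75 (59 gene names) passed the filter on dim probes, that is, every line had the probe well above background after siCtrl, after siDLEU1-2, or after both. Another 26 were above background on some arrays without passing, and 85 were so on no array, among them HTR2A, OLFM4, PCDH8, SIAH3, CYSLTR2, and ARL11. Beyond 2715.51 kb downstream of DLEU1 no probe passed, and 1 of 14 was above background on any array. The array carries no probe named DLEU2, MIR15A, or MIR16-1, so these genes are not analysed here.

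Among the 75 probes tested, limma called 1 higher after siDLEU1-2, against 3.98% of all 19956 probes tested, and 3 lower, DLEU1 included, against 4.52%. The fold change was over 2 in all 3 lines for 3 of the 75 probes, against 4.38% of all probes, namely DLEU1, WDFY2, and RCBTB2. RCBTB2 passed through a siDLEU1-2 value in HSC-3 that was not well above background, and with dim values set to the detection floor 2 probes passed. Unadjusted p was below 0.05 for 22 of the 75, against 5893 of the 19956. The share of the neighborhood that was called was therefore near that of the whole array. Leaving out HSC-3 or KON removed every call, on the whole array too, and leaving out Ca9-22 left 1 probe lower, which was DLEU1.

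The probes closest to DLEU1 mostly showed small mean changes over the 3 lines, though single lines moved more. Within 500 kb, 11 probes other than DLEU1 were tested, and limma called 0 of them. Unadjusted p was below 0.05 for 1, against 5893 of all 19956 probes tested. With 3.98% called higher and 4.52% lower over the whole array, 0 of 11 does not set these genes apart. The mean log2 fold change over the 3 lines had a median of -0.08 over the 11 probes. Its median size was 0.14, against 0.29 over all probes tested. Opposite changes in different lines cancel in this mean, as for KCNRG, and 3 of the 11 probes are EBPL probes. The nearest measured neighbor, KCNRG, which encodes a soluble regulator of potassium channel assembly, lies 84.7 kb upstream. In HSC-3, KON, and Ca9-22 its siCtrl levels were -2.35, -3.23, and -2.75, and its siDLEU1-2 levels were -3.38, -2.43, and -2.45. The groups overlapped, since it was lower in HSC-3 (-1.03) and higher in KON (0.79) and Ca9-22 (0.30), and the mean of 0.02 ± 0.95 (SD, n = 3) had an adjusted p of 0.980 in limma.

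TRIM13, a membrane-bound RING ubiquitin ligase of the endoplasmic reticulum, has a pair of probes. At 92.3 kb upstream, A_23_P87973 read 3.64, 2.68, and 2.27 in the same order of lines after siCtrl, and 3.49, 2.33, and 2.33 after siDLEU1-2. Its changes were -0.14, -0.34, and 0.06, and the siRNA groups overlapped. The second probe, A_23_P99360, 86.8 kb upstream, had changes of -0.90, -0.79, and -0.13 (mean -0.61 ± 0.42, SD, n = 3), and neither probe was called (limma adjusted p = 0.579 and 0.135). SPRYD7 and the pseudogene CTAGE10P, 192 and 213 kb upstream, had mean changes of 0.21 ± 0.48 and 0.21 ± 0.20 (SD, n = 3). CTAGE10P has relatives elsewhere in the genome that a probe may also bind. KPNA3, a nuclear import receptor, and EBPL, which resembles the sterol isomerase EBP, lie 406 to 444 kb upstream on the opposite strand. KPNA3 changed by 0.05, 0.24, and 0.06, and the 3 EBPL probes had means of -0.14 to -0.08, with no call. FLJ31945, 23.3 kb downstream, and XLOC_010389, 38.6 kb upstream, were not well above background on any array.

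By distance, the middle range held the larger mean changes. From 500 to 2000 kb, 25 probes had a median log2 fold change of -0.33 and a median size of 0.54, with 2 called lower (4.52% of all probes). Beyond 2000 kb, 38 probes had a median of -0.12 and a median size of 0.24, with 1 called higher (3.98% of all probes), so these calls are near the shares of the whole array. Across the 74 probes other than DLEU1, the size of the mean change and the distance gave a Spearman rho of -0.05, a description over genes that share the same 6 arrays. The 38 probes on the DLEU1 strand had a median of -0.13 and a median size of 0.32, with 13 lower in all 3 lines and 9 higher in all 3. The 36 on the opposite strand had -0.12 and 0.22, with 15 lower and 2 higher, against 26.7% lower and 26.9% higher over all probes. The strands were not tested against each other.

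**Figure D2:**
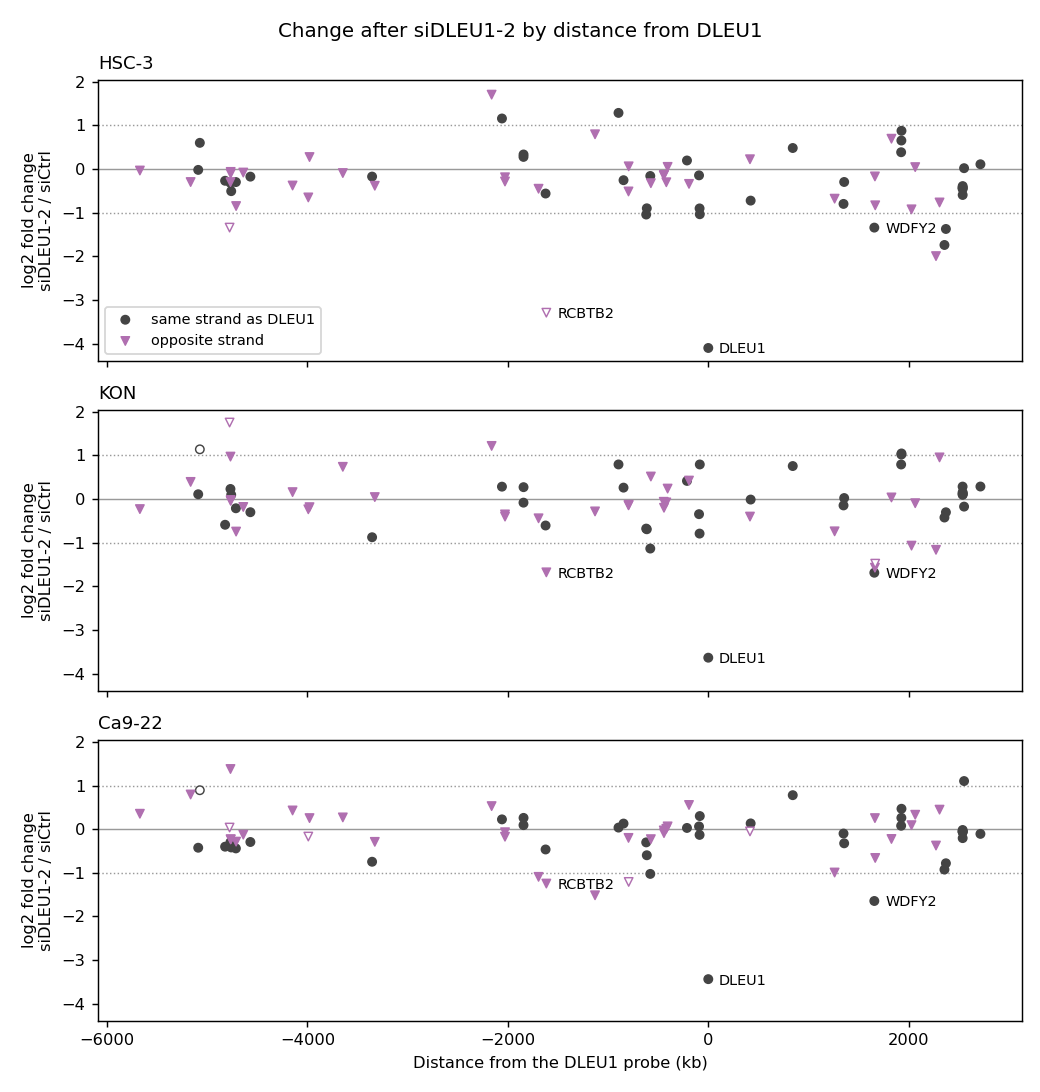
Log2 fold change of siDLEU1-2 over siCtrl (y axis) against the distance from the DLEU1 probe in kb (x axis) for the 75 probes tested, a panel for each cell line, circles for the DLEU1 strand and triangles for the opposite strand. Dotted lines mark a 2-fold change, and open symbols mark changes with 1 of the 2 arrays not well above background. DLEU1, at 0 kb, lies at -4.10, -3.63, and -3.44, and the probes within 500 kb of it on both sides lie between -1.03 and 0.79.

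The probe with the largest called change after DLEU1 was WDFY2, which encodes a WD-repeat and FYVE-domain protein of endosomes and lies 1657 kb downstream (A_33_P3209646, chr13:52336092-52336151, + strand). Its siCtrl levels were 1.63 (HSC-3), 0.24 (KON), and 0.95 (Ca9-22), and its siDLEU1-2 levels were 0.29, -1.45, and -0.70. Within each line it was 2.53-fold, 3.22-fold, and 3.13-fold lower, a mean log2 change of -1.56 ± 0.19 (SD, n = 3, limma adjusted p = 0.0247). The call was lost in 6 of 13 alternatives, at an adjusted p of 0.624 without the block and of 0.0608 to 0.141 with a looser filter or a line left out, while the mean stayed between -1.67 and -1.49 in these. The siRNA groups overlapped across lines, since HSC-3 after siDLEU1-2 was above KON after siCtrl. DHRS12, a short-chain dehydrogenase gene on the opposite strand with probes 6.0 and 8.8 kb beyond, had changes of -0.83, -1.48, and -0.66 by one probe and of -0.17, -1.57, and 0.25 by the other (limma adjusted p = 0.0580 and 0.447). The KON change of the first probe is an approximate bound, as the siDLEU1-2 value was not well above background, at least 1.56-fold lower against the floor.

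INTS6, a subunit of the Integrator complex that processes small nuclear RNAs, fell by 0.80 (mean log2 change -0.80 ± 0.17, SD, n = 3, limma adjusted p = 0.0457) by probe A_24_P167614, 1261 kb downstream. Its level went from 2.37 to 1.69 in HSC-3, from 1.07 to 0.33 in KON, and from 0.42 to -0.57 in Ca9-22, lower in each line by a similar amount. This call too was lost in 6 of 13 alternatives, with an adjusted p of 0.99996 without the block, 0.146 and 0.194 with the looser filters, and 0.126 to 0.161 with a line left out. The INTS6 mean stayed between -0.87 and -0.71 in these. Of 3 further INTS6 probes, none passed the filter.

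KIAA1704, named GPALPP1 in RefSeq, carried the one call upward, and its probes did not agree. A_24_P219053, 5073 kb upstream, had measured changes of 0.60, 1.14, and 0.89 (mean 0.88 ± 0.27, SD, n = 3, limma adjusted p = 0.0484). In KON and Ca9-22 its siCtrl spots were not well above background, so it passed the filter in those lines only through the siDLEU1-2 arrays, where it was higher, and its changes there are against a dim baseline. The other probe, A_24_P227585, was above background on all 6 arrays and had changes of -0.02, 0.11, and -0.43 (limma adjusted p = 0.704). The call on the first probe was lost in 10 of the 12 alternatives that could test it. With quantile normalization and median centering the mean was nearly as large (0.84 and 0.81, adjusted p = 0.0503 and 0.0502), and with normexp background correction it was 0.30 (adjusted p = 0.125). With a filter of all 6 arrays the probe was not tested.

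RB1 and the genes beside it were described from a list of neighbors. Of 32 genes listed for 13q14 and the RB1 neighborhood, 26 have a probe in the window, and 20 genes with 27 probes passed the filter. Among these probes limma called 0 higher, against 3.98% of all probes tested, and 1 lower, INTS6, against 4.52%. Unadjusted p was below 0.05 for 10 of the 27, against 5893 of all 19956 probes tested. Over the 27 probes, the log2 fold change had a median of -0.14, against 0.01 over all probes tested, and 13 (48.1%) were lower in all 3 lines and 6 (22.2%) higher in all 3, against 26.7% and 26.9% of all probes.

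RB1, the retinoblastoma tumor suppressor that holds E2F factors in check, read 4.34 (HSC-3), 3.96 (KON), and 3.02 (Ca9-22) after siCtrl, by probe A_23_P204850. After siDLEU1-2 it read 3.78, 3.36, and 2.55. The changes of -0.56, -0.60, and -0.47 (mean -0.54 ± 0.07, SD, n = 3) were alike in the 3 lines, with an adjusted p of 0.0761 in limma. RCBTB2, an RCC1- and BTB-domain gene on the opposite strand, has its probe 7.5 kb beyond that of RB1 (A_23_P14105, chr13:49063351-49063410). It read -2.62, -1.16, and -1.41 after siCtrl and -5.91, -2.84, and -2.66 after siDLEU1-2 in HSC-3, KON, and Ca9-22. The groups nearly met, as the lowest siCtrl level was -2.62 and the highest siDLEU1-2 level -2.66. It was 3.20-fold lower in KON and 2.37-fold lower in Ca9-22. In HSC-3 the siDLEU1-2 value was not well above background, so the measured -3.29 is not a fold. The change there is an approximate bound, at least 1.96-fold lower against the detection floor of that array. In the fit on measured values it missed the threshold (limma adjusted p = 0.0558). Its mean log2 change of -2.07 became -1.30 where dim values were set to the detection floor (adjusted p = 0.0273) and -0.69 with normexp background correction (adjusted p = 0.0320). LPAR6, a lysophosphatidic acid receptor gene within an intron of RB1 on the opposite strand, had changes of -0.45, -0.44, and -1.09 (adjusted p = 0.104).

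Other neighbors spread in both directions and missed the threshold, some of them narrowly. SUCLA2, a subunit of mitochondrial succinyl-CoA synthetase 2162 kb upstream, had changes of 1.71, 1.22, and 0.53 (mean 1.15 ± 0.59, SD, n = 3, limma adjusted p = 0.0648). RNASEH2B, a subunit of the nuclease that removes RNA from RNA-DNA hybrids, had 0.48, 0.76, and 0.78 (adjusted p = 0.0596). In the other direction, SETDB2, a histone H3 lysine 9 methyltransferase, had means of -0.67 ± 0.37 and -0.73 ± 0.15 by its pair of probes (adjusted p = 0.0990 and 0.0513). MED4, a subunit of Mediator, and ITM2B, a membrane protein linked to familial dementia, had means of -0.27 to 0.29 over 4 probes. PHF11, a PHD-finger gene, had changes of -0.16, -1.13, and -1.03 (adjusted p = 0.118). Some of these passed in alternatives. SETDB2 probe A_23_P341532 did so in 5 of 13, with limma adjusted p of 0.0322 to 0.0495. With a filter of all 6 arrays SETDB2, SUCLA2, and RNASEH2B had adjusted p of 0.0379, 0.0465, and 0.0450 in limma. With normexp SETDB2, SUCLA2, RNASEH2B, and RB1 had 0.0322, 0.0480, 0.0362, and 0.0416. RCBTB2 passed with median centering (0.0498), normexp, and the detection floor, and DHRS12 (A_33_P3342633) with the detection floor (0.0452).

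As a whole the neighborhood leaned downward, by little. Without DLEU1, 28 of 74 probes (37.8%) were lower in all 3 lines, against 26.7% of all probes tested, and 11 (14.9%) were higher in all 3, against 26.9%. By line, the median change of the 75 probes was -0.30 (HSC-3), -0.08 (KON), and -0.09 (Ca9-22), against -0.0016, 0.02, and -0.0083 over all probes tested. Of the 74 probes, 5 are HNRNPA1L2 probes within 1 kb of each other, in a gene that closely resembles HNRNPA1 elsewhere in the genome, so they are neither independent nor certain to measure this gene. TPT1 and UTP14C have near copies elsewhere too. Without the HNRNPA1L2 probes the counts were 28 and 11 of 69.

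Levels of these genes differed between the cell lines in a test that takes both arrays of a line together. The siCtrl arrays alone, 1 per line, allow no test before knockdown. Many of these genes were highest in HSC-3 and lowest in Ca9-22, both after siCtrl and after siDLEU1-2. In limma with the siRNA as a term, 46 of the 75 probes (61.3%) differed between lines, against 53.8% of all probes tested, and 61.6% of the 279 tested on the rest of chromosome 13. The excess over all probes turned with normexp (56.0% against 57.0%) and with centering on probes detected on all arrays (50.7% against 52.5%). It also turned without filter (14.6% against 16.3%), without HSC-3 (26.7% against 27.6%), and without Ca9-22 (24% against 29.8%). The order HSC-3 above KON above Ca9-22 held after both siRNAs for 19 of 75 probes (25.3%), against 12.5% of all probes and 20.4% of the rest of chromosome 13. HSC-3 exceeded Ca9-22 after both siRNAs for 53 of 75 (70.7%), against 47.6% and 60.9%. The median difference between HSC-3 and Ca9-22 was 0.92 on the log2 scale after siCtrl and 0.60 after siDLEU1-2, against 0.12 and 0.14 over all probes, and 0.34 and 0.40 over the rest of chromosome 13. Averaged by gene name, the medians over 59 genes were 0.90 and 0.60. Averaged over both siRNAs the median was 0.84, against 0.13 over all probes, and it was 0.0698 against -0.20 where no probe was filtered out for dimness. These are descriptions of 3 lines with 1 array per siRNA, over probes that share those arrays.

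Several genes on the RB1 side held this order after both siRNAs, among them MED4, RB1, CDADC1, PHF11, EBPL, and KPNA3. EBPL read 6.35 (HSC-3), 5.88 (KON), and 4.71 (Ca9-22) after siCtrl, and 6.21, 5.82, and 4.68 after siDLEU1-2 (A_23_P128554, limma adjusted p between lines 0.0077). The siRNA left the EBPL levels nearly where they were, while HSC-3 exceeded Ca9-22 by 3.12-fold after siCtrl. The same excess was 2.20-fold for KPNA3 and 2.50-fold for RB1, with KON between. DLEU1 itself did not share the order, since after siCtrl KON was highest and HSC-3 lowest, with 0.77 between them on the log2 scale.

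The 5 gene symbols with the widest range over the siCtrl arrays were LCP1, THSD1, PHF11, ATP7B, and DHRS12. LCP1, which encodes the actin-bundling protein L-plastin, ran against the order of its neighbors. It read 1.29 (HSC-3), 7.13 (KON), and 6.52 (Ca9-22) after siCtrl, and 1.57, 6.94, and 6.77 after siDLEU1-2, and its mean change of 0.12 ± 0.26 (SD, n = 3) was small beside the range of 5.83 between lines. PHF11 read 2.76, 0.48, and -0.37 after siCtrl, an excess of 8.77-fold in HSC-3 over Ca9-22. THSD1, a thrombospondin-domain membrane protein gene, read 4.87, 3.90, and 1.64 after siCtrl and 2.88, 2.74, and 1.27 after siDLEU1-2. ATP7B, a copper-transporting ATPase, was highest in Ca9-22, at 1.06, against -0.78 in HSC-3 and -1.88 in KON. DHRS12 was highest in HSC-3, at -0.23, against -2.88 and -2.34 by probe A_33_P3342633.

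**Figure D3:**
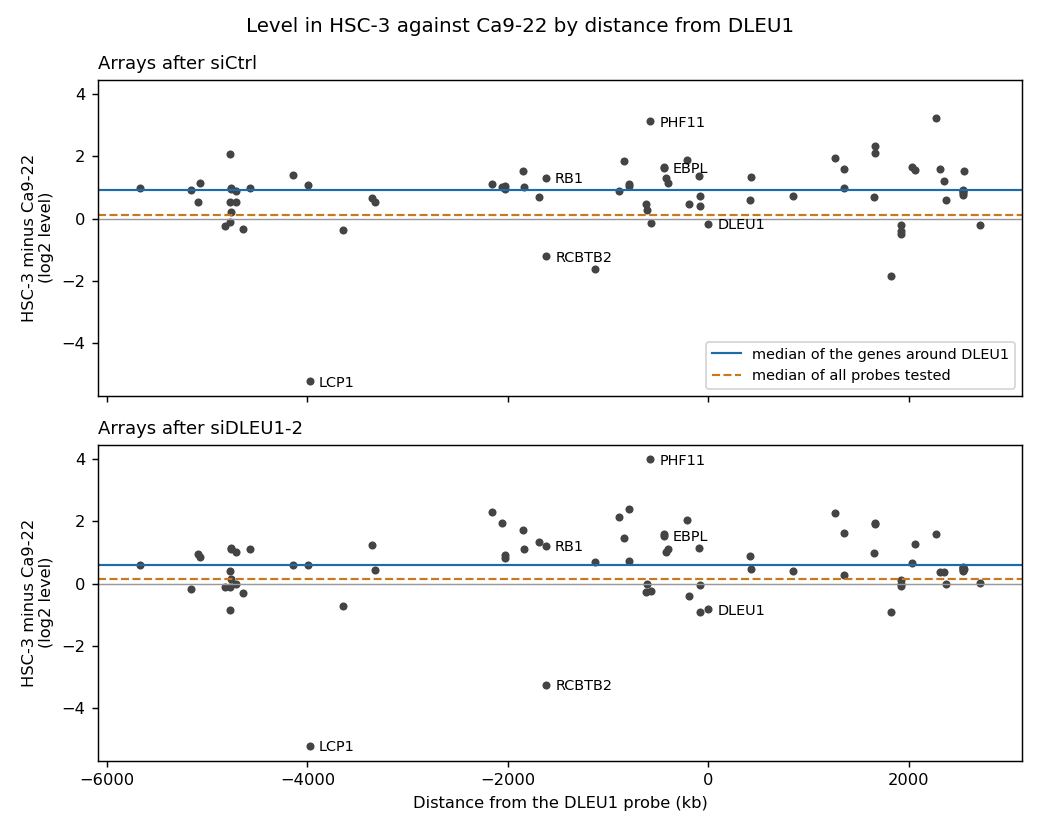
Difference in log2 level between HSC-3 and Ca9-22 (y axis) against the distance from the DLEU1 probe in kb (x axis) for the 75 probes tested, after siCtrl in the upper panel and after siDLEU1-2 in the lower. Most points lie above 0, with medians of 0.92 and 0.60 (solid lines) against 0.12 and 0.14 over all probes tested (dashed lines), and LCP1 lies near -5.2 in both.

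The miR-15a and miR-16 microRNAs, whose hairpins lie in DLEU2, were not measured by these arrays. Their mature sequences in RefSeq (GRCh38.p14) share the seed, shown in capitals (bases 2 to 8), through which they repress BCL2 and several cyclins.
hsa-miR-15a-5p: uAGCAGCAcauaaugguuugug
hsa-miR-16-5p: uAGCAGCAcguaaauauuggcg
A list of 18 genes commonly cited as targets of these microRNAs was drawn up with earlier results of these data known. Its counts are therefore a description and no independent support. Of the 18 genes, 15 had a probe that passed the filter, 18 probes in all. limma called 1 probe higher (against 3.98% of all probes) and 0 lower, with a median log2 fold change of 0.31, against 0.01 over all probes tested. The called gene was WEE1, the kinase that restrains entry into mitosis, with changes of 1.38, 1.53, and 1.23 (mean 1.38 ± 0.15, SD, n = 3, limma adjusted p = 0.0247). The study had already reported higher WEE1 after the knockdown in HSC-3 and KON by quantitative PCR. CDK6, a G1 cyclin-dependent kinase, had 1.43, 2.18, and 0.77 (limma adjusted p = 0.0541), and CCND1, cyclin D1, had 0.18, 0.40, and 0.32 (adjusted p = 0.231). The mean was above 0 for 15 of the 18 probes and below 0 for 3, against 49.2% below 0 over all probes tested. The 3 were MYB (-2.09, 0.51, and -1.43), HMGA1 (mean -0.19), and 1 of the BMI1 probes (mean -0.24). No probe of BCL2 passed the filter.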

How the data were processed

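The authors deposited Feature Extraction 10.7.3.1 scanner output, and the processed signal is an intensity after background subtraction, not normalized between arrays. The deposited series table holds the same intensity, rounded. Control and outlier spots were left out, spots of a probe averaged, and the log2 signal centered on each array's 75th percentile. Probes usable on all arrays and well above background (at least 50% of spots) on at least 1 array of each line were tested. limma 3.58.1 in R 4.3.3 (lmFit, eBayes) had siRNA and line as terms, with Benjamini-Hochberg adjustment (threshold 0.05) over all 19956 probes tested, and was tested on simulated data. The line was the block, and deviations of its paired arrays correlated at 0.81 to 0.83. An array had 43.0% to 45.7% of probes well above background, and no spot was saturated. The detection floor of an array was the lowest level called well above background on it. Some spots not so called lay above it, so folds against the floor are approximate bounds. The window, the lists, and the rule for named genes were chosen with earlier results of these data known. Named were DLEU1, listed neighbors, probes within 250 kb, probes called or over 2-fold in all lines, the 5 widest siCtrl ranges, and genes whose probes disagreed in sign. Other genes were named after their values were seen. One listed marker and one listed neighbor are not reported here. Alternatives were other scalings, background correction, filters, a detection floor, a 3-fold threshold, the methods' t-test, no block, and leaving out each line.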

Additional observations from a re-analysis of the deposited data

Results flagged for a closer look

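XLOC_010591, a noncoding transcript 4776 kb upstream of DLEU1, measured over 2-fold lower after siDLEU1-2 in HSC-3 (-1.34) and over 2-fold higher in KON (1.76), with 0.04 in Ca9-22, a range of 3.096 on the log2 scale. It was the one tested probe of the window to exceed 2-fold in opposite directions in 2 lines. This difference was not tested, as each has 1 array per siRNA, and the probe was well above background on 1 of the 2 arrays of each line. Set against the detection floor, an approximate bound, the HSC-3 decrease was at least 2.09-fold and the KON increase at least 2.80-fold.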

How the results depend on the processing

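The count of probes called higher (1) was 0 with quantile normalization, median centering, and centering on probes detected on all arrays (3.20% to 3.66% of all probes), 0 with a filter of at least 1 of 6 arrays, no filter, no block, and the methods' t-test, 3 with normexp (4%, against 5.67% of all probes) and with a filter of all 6 arrays (4.41% against 5.48%), and 0 whichever line was left out. The count called lower (3) was 5 with median centering (6.67% against 5.36%), 6 with normexp (8% against 5.90%) and with dim values raised to the floor (8% against 5.05%), 0 with a filter of at least 1 of 6 arrays, no filter, no block, and the methods' t-test, and 0 to 1 with a line left out. The count over 2-fold in all lines (3) was 2 with normexp, with a filter of all 6 arrays, and with dim values raised to the floor, 5 with a filter of at least 1 of 6 arrays, 6 without filter, 1 at 3-fold, and 3 to 6 with a line left out. Shares over all probes are not given for these fold counts, and with a line left out fewer lines had to pass. The higher counts therefore do not set the window apart. Under the 2 looser filters, no block, and the methods' t-test, and without HSC-3 or KON, no probe was called on the whole array. DLEU1 stayed at -3.72 but missed the threshold with a filter of at least 1 of 6 arrays (adjusted p = 0.122), no filter (0.141), and no block (0.183), and with a line left out its mean was -3.87 to -3.54. Its decrease kept its direction in every alternative run, at -2.69 with normexp. The median change over the window was -0.13, against 0.01 over all probes tested. It was -0.20 with quantile normalization and with median centering, against -0.02 and -0.06 over all probes. Without KON it was -0.23, against -0.00043. Without filter it was 0.0624, against 0.140 over all probes in that setting. Probes differing between lines (46) numbered 27 without filter (14.6%, against 16.3% of all probes), 22 without the siRNA term (29.3% against 25.2%), and 18 to 31 with a line left out (26.7% against 27.6% without HSC-3, 41.3% against 30.8% without KON, and 24% against 29.8% without Ca9-22). The median HSC-3 excess over Ca9-22, averaged over both siRNAs (0.84), an alternative chosen after seeing the data, was 0.61 when centered on probes detected on all arrays, 0.59 with normexp, and 0.0698 without filter. The medians over all probes were 0.13, -0.10, 0.09, and -0.20 in the same order, so the excess over all probes was 0.71 in the first pair, 0.49 with normexp, and 0.27 without filter.

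Uncalled means near 0 changed sign, with the cause not tested. These were CDADC1 (-0.0266) and KCNRG (-0.0522) with median centering, KCNRG with centering on detected probes (-0.0057), and RCBTB1 with normexp (0.00027). With a line left out, CDADC1 ran from -0.0633 to 0.196, KCNRG from -0.367 to 0.547, RCBTB1 from -0.276 to 0.144, ATP7B from -0.0935 to 0.367, and the A_24_P227585 probe of KIAA1704 from -0.222 to 0.0467. Changes of probes near background are poorly measured.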

Other observations

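KIAA0226L, named RUBCNL in RefSeq and known for a part in autophagy, exceeded background clearly on none of the siCtrl arrays, and did so after siDLEU1-2 in HSC-3 and KON. Its level was -4.94, -5.95, and -5.50 after siCtrl and 0.03, -2.66, and -4.07 after siDLEU1-2 in HSC-3, KON, and Ca9-22. The mean over the 3 lines after siDLEU1-2 was at least 2.62-fold above the mean detection floor of the siCtrl arrays. This is an approximate bound on the group means and not on each line, as Ca9-22 was not well above background after either siRNA. The probe did not pass the filter and was not tested. XLOC_010602 was at least 2.02-fold higher by the same bound on means. SERPINE3, 1256 kb downstream of DLEU1, was well above background on the HSC-3 array after siDLEU1-2 alone, at -1.87 against -5.74 after siCtrl. CKAP2, a spindle-associated protein gene 2357 to 2371 kb downstream, had log2 changes of -1.74, -0.42, and -0.93 by one probe and -1.37, -0.30, and -0.78 by the other, lower in each line and not called (limma adjusted p = 0.0937 and 0.106). These genes were chosen after their values were seen.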
